A study of Mus musculus with 4 samples.

Results

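The vascular connexins described here are 5 connexin genes of blood vessels, Gja5, Gja4, Gja1, Gjc1 and Gjb2, together with the pannexin gene Panx1. Their members were the non-control probes whose gene name in the array files was 1 of these 6 symbols, which gave 6 of 30199 gene names and 8 of 39429 probes, 3 of them for Gja5 and 1 for each other gene. RNA was from endothelial cells of mouse spleen, hybridised to 1-colour Agilent arrays. All mice were Ackr4GFP/wt, with a green fluorescent protein (GFP) reporter at 1 copy of the Ackr4 locus, so the 2 groups share this genotype. Cells that were DAPI-, CD45- and CD31+ were sorted into ACKR4-positive cells, with GFP, and ACKR4-negative cells, without it. Each group has 2 arrays from 2 independent sorts, each pooled from 2 to 3 mice, and the labels used here give neither age nor strain. Both groups are sorted on CD31 and may hold endothelium of several vessel types, and CD31 also lies on platelets and some blood cells.

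Connexins are membrane proteins that assemble into rings, and rings of neighbouring cells dock to form gap junctions, through which ions, second messengers and other small molecules pass from cell to cell. In blood vessels they carry electrical signals along the endothelium and from endothelium to smooth muscle. Gja5 and Gja4 (connexins Cx40 and Cx37) are known as the main endothelial connexins of arteries, Gja1 (Cx43) is found in endothelium at sites of disturbed flow, in lymphatic vessels and in smooth muscle, and Gjc1 (Cx45) is known from smooth muscle and early vessels. Gjb2 (Cx26) is chiefly a connexin of epithelia. Pannexin channels do not normally form gap junctions but open to the outside of the cell and release ATP.

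The probes of Gja5 are shown first because they disagree. All 3 lie on chromosome 3 on the plus strand (mm9), in the order 5′ probe (96836336 to 96836395), middle probe (96857349 to 96857408) and downstream probe (96881280 to 96881339). The gaps between their starts are 21.0 kb and 23.9 kb. The files tie the 5′ and the middle probe to RefSeq transcripts of Gja5, and the downstream probe to cDNA records with no RefSeq transcript. Exon, intron and untranslated region were not assigned, as no annotation of mm9 was used here. The first 30 bases of each 60-base probe follow, all in lower case because no part is singled out.
Gja5 5′ probe: caaataacagtgggcagttgaacagcagcc
Gja5 middle probe: ccgacactggcactaagactctctgttctg
Gja5 downstream probe: tgtgtgctttatctgtaaatattgattgca

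Signal was well above background for 54.9% to 58.3% of the probes on each array, and spike-in controls had a median signal of 2805 and 2946 in ACKR4-positive replicates 1 and 2 and of 847 and 3432 in ACKR4-negative replicates 1 and 2. Ackr4, the sorted gene, had levels of -0.21 and 2.55 in ACKR4-positive cells and of -7.53 and -7.50 in ACKR4-negative cells, a check of the labels since the cells were sorted on its reporter. All 12 pan-endothelial markers, among them Pecam1 and Cdh5, were well above background on all 4 arrays. Ptprc, which encodes CD45, was well above background on 1 of the 4 arrays, ACKR4-positive replicate 2. A level here is the mean log2 processed signal of a probe's spots minus the 75th percentile of its array, so 0 is that percentile. Levels of different probes are not compared, because probes differ in how brightly they bind. All differences in level below are ACKR4-positive minus ACKR4-negative, with the standard error (SE) of a limma fit over all 22183 tested probes and n = 2 arrays per group.

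The comparison asked how these 6 genes differ between spleen endothelial cells with and without the ACKR4 reporter. Gja5, the connexin of arteries, fell at least 106-fold in ACKR4-positive cells at its middle probe, to a signal not well above background on either array. This was the only member probe that passed the test without pairing. Gja4 and Gjb2 had lower mean levels in ACKR4-positive cells, and Gja1 and Gjc1 had higher ones. With the replicate number as a block these 4 genes passed the test too, while Panx1 passed neither test. In bulk samples such as these, fewer cells of a type and less RNA per cell cannot be told apart.

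The test (limma, adjusted p under 0.05 by Benjamini-Hochberg over all tested probes) called 1 of the 8 member probes lower and 0 higher in ACKR4-positive cells, where 3.62% of all tested probes were called lower and 1.76% higher. At an unadjusted p under 0.05 there were 4 lower and 2 higher, against 8.73% and 6.87% of all tested probes. The replicate numbers pair the arrays, since the titles give both arrays of a number the same mouse number. With that number as a block, the same fit called 4 member probes lower and 2 higher, against 8.21% and 6.37% of all tested probes. The levels of the 2 groups did not overlap for 7 of the 8 probes, which was so for 44.3% of all tested probes. All 8 probes passed the filter on dim probes. The 5′ and middle Gja5 probes, dim on both ACKR4-positive arrays, and the Gjb2 probe, dim on 1, passed it only through the ACKR4-negative arrays. The median log2 difference of the 8 probes was -1.12, against 0.04 for all tested probes.

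**Figure D1:**
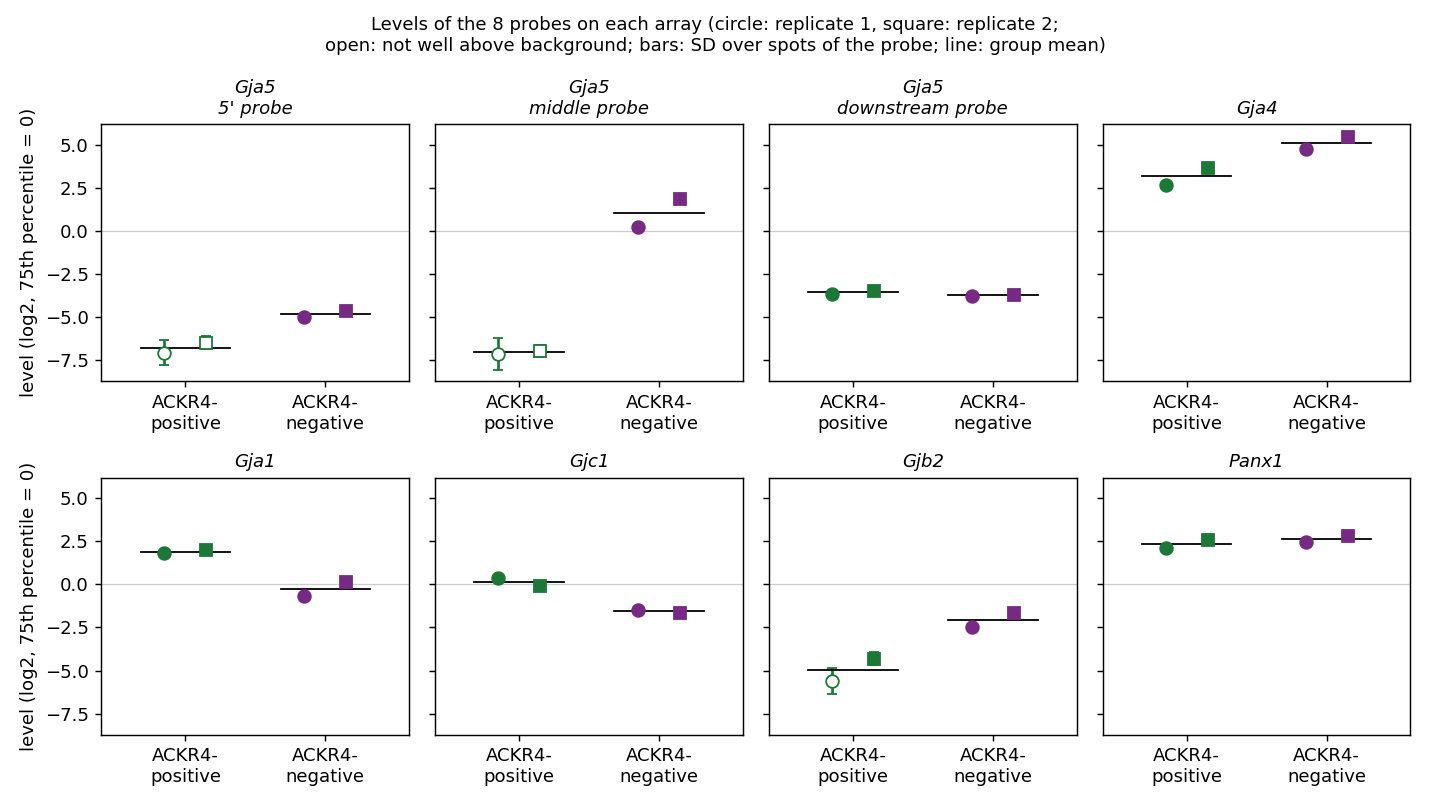
Levels of the 8 member probes (log2 signal relative to the array's 75th percentile) on the 2 ACKR4-positive and the 2 ACKR4-negative arrays, with bars for the SD over a probe's spots and a line at each group mean. The middle Gja5 probe lies near -7 on both ACKR4-positive arrays and above 0 on both ACKR4-negative arrays, and only Panx1 has groups that overlap.

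Gja5 encodes a connexin of arterial endothelium and of the atrial and conducting muscle of the heart. At the middle probe its level was -7.11 and -6.96 on the ACKR4-positive arrays, against 0.25 and 1.86 on the ACKR4-negative arrays. In linear signal these were 6.85 and 4.73 in ACKR4-positive cells and 913 and 2378 in ACKR4-negative cells. In the authors' deposited table the same probe stood at its lowest value, 15 and 15, in ACKR4-positive cells and at 1811 and 5440 in ACKR4-negative cells. Both ACKR4-positive arrays were thus in the range of background and far below both ACKR4-negative arrays. The log2 difference was -8.09 ± 0.60 (SE, 95% interval -9.65 to -6.53, limma adjusted p = 0.00952), and -7.36 and -8.82 in sorts 1 and 2. Since no ACKR4-positive array gave a signal well above background, the measured bound is at least 106-fold lower.

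The 5′ probe of Gja5 was dim throughout, with levels of -7.05 and -6.47 in ACKR4-positive cells and of -5.02 and -4.65 in ACKR4-negative cells. Here too the groups did not overlap, and the probe was well above background on the 2 ACKR4-negative arrays and on neither ACKR4-positive array. In log2 units the probe differed by -1.93 ± 0.36 (SE, 95% interval -2.86 to -0.998, limma adjusted p = 0.0589, and 0.00487 with the replicate block). As a bound this is at least 1.79-fold lower. The downstream probe had levels of -3.67 and -3.46 in ACKR4-positive cells and of -3.78 and -3.69 in ACKR4-negative cells. It was well above background on all 4 arrays, with a signal of 53.5 to 74.8 in ACKR4-positive cells and of 50.8 to 56.0 in ACKR4-negative cells. Its log2 difference was 0.17 ± 0.28 (SE, limma adjusted p = 0.871, and 0.657 with the block), and its 95% interval of -0.57 to 0.91 does not reach that of either other probe. The neighbouring gene Acp6, which encodes a phosphatase and has its probe 144 kb from the 5′ probe, had levels of 1.89 and 2.21 in ACKR4-positive cells and of 1.55 and 1.80 in ACKR4-negative cells (log2 difference 0.37, limma adjusted p = 0.711).

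**Figure D2:**
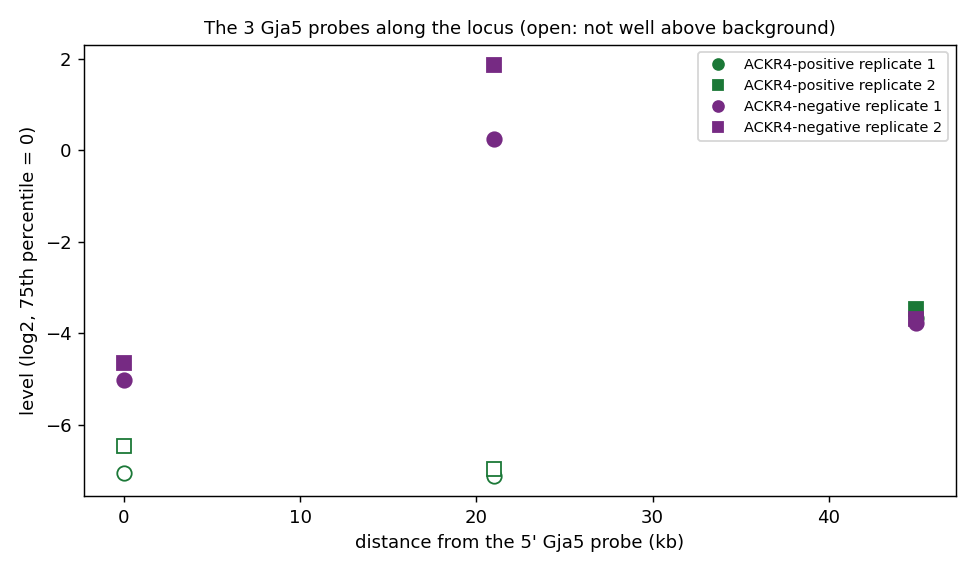
Level of the 3 Gja5 probes (log2 signal relative to the array's 75th percentile) against distance in kb from the 5′ probe, for each of the 4 arrays, with open symbols where signal was not well above background. The groups lie apart at the 5′ and middle probes and together at the downstream probe, where levels run from -3.78 to -3.46.

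Background correction bears on the size of the Gja5 difference. With normexp correction, which adds an offset of 50 to every signal, the middle probe stood at -4.54 (limma adjusted p = 0.0133) and the 5′ probe at -0.40 (adjusted p = 0.760). Of 13085 other named genes, 6 had a centred pattern over the 4 arrays within 0.5 (root mean square difference of log2 levels) of the middle Gja5 probe. The nearest were Gp5, a platelet glycoprotein, at 0.38, Rbp7, a retinoid-binding protein, at 0.38, and Gucy1b1, a subunit of soluble guanylate cyclase, at 0.41. Of these, Gp5 is also 1 of the 12 platelet markers counted further on.

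Gja4 encodes the other arterial connexin, which is also present in platelets and in some pericytes and smooth muscle. It was measured on chromosome 4, from 126988848 to 126988907 (mm9, minus strand). The level was 2.68 and 3.68 on the ACKR4-positive arrays, against 4.78 and 5.46 on the ACKR4-negative arrays. In linear signal this was 6082 and 7560 in ACKR4-positive cells and 21138 and 28967 in ACKR4-negative cells. Unlike that of the 5′ and middle Gja5 probes, the Gja4 signal was well above background on all 4 arrays. The lower ACKR4-negative array exceeded the higher ACKR4-positive one. The log2 difference was -1.94 ± 0.48 (SE, 95% interval -3.21 to -0.679, fold 3.84), which was not called (limma adjusted p = 0.127). With the replicate block the SE was 0.23 and the adjusted p 0.00514, with differences of -2.10 and -1.79 in sorts 1 and 2.

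Gja1 encodes the most widely expressed connexin and was measured on chromosome 10, from 56109814 to 56109873 (mm9, plus strand). The level was 1.82 and 1.98 in ACKR4-positive cells, against -0.65 and 0.13 in ACKR4-negative cells. The linear signals were 3352 and 2327 in ACKR4-positive cells and 490 and 717 in ACKR4-negative cells, so both ACKR4-positive arrays were above both ACKR4-negative arrays. The log2 difference was 2.16 ± 0.38 (SE, 95% interval 1.17 to 3.15, fold 4.47), just outside the threshold (limma adjusted p = 0.0513). With the replicate block it was called higher (adjusted p = 0.00523), at 2.47 and 1.85 in sorts 1 and 2. Median centring, normexp, a trended variance prior and the authors' deposited table also called it (adjusted p = 0.0312 to 0.0494), while 10 of 16 alternatives, all 4 that leave out 1 array among them, did not (adjusted p = 0.0508 to 0.211).

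Gjc1, whose product joins smooth muscle cells and forms low-conductance channels, had its probe on chromosome 11 at 102661010 to 102661069 (mm9, minus strand). Its level was 0.39 and -0.08 in ACKR4-positive cells, against -1.48 and -1.65 in ACKR4-negative cells. Both ACKR4-positive arrays were higher, and the probe was well above background on all 4 arrays. Its log2 difference of 1.72 ± 0.32 (SE, 95% interval 0.884 to 2.55, fold 3.29, limma adjusted p = 0.0595) was not called, and with the replicate block it was called higher (adjusted p = 0.00773). The differences were 1.86 in sort 1 and 1.57 in sort 2.

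Gjb2, a connexin of skin, inner ear and other epithelia, was dim. Its signal came from chromosome 14, 57717629 to 57717688 (mm9, minus strand), with levels of -5.59 and -4.31 in ACKR4-positive cells and of -2.48 and -1.64 in ACKR4-negative cells. Linear signals were 19.7 and 29.8 in ACKR4-positive cells and 138 and 211 in ACKR4-negative cells, and ACKR4-positive replicate 1 was not well above background. Both ACKR4-negative arrays were higher. The log2 difference was -2.89 ± 0.57 (SE, 95% interval -4.39 to -1.39, limma adjusted p = 0.0707, and 0.00166 with the replicate block), and normexp correction took it to -1.46 (adjusted p = 0.152).

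Panx1, the pannexin of most tissues and a channel for ATP release, had its probe on chromosome 9 at 14810250 to 14810309 (mm9, minus strand). Its level was 2.11 and 2.56 in ACKR4-positive cells, against 2.45 and 2.83 in ACKR4-negative cells. The groups overlapped, and signal was well above background on all 4 arrays, at 4099 and 3483 in ACKR4-positive cells and at 4216 and 4658 in ACKR4-negative cells. The log2 difference was -0.31 ± 0.33 (SE, 95% interval -1.18 to 0.57, limma adjusted p = 0.795, and 0.423 with the block). The interval leaves room for a level up to 1.18 log2 units lower or 0.57 higher in ACKR4-positive cells.

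**Figure D3:**
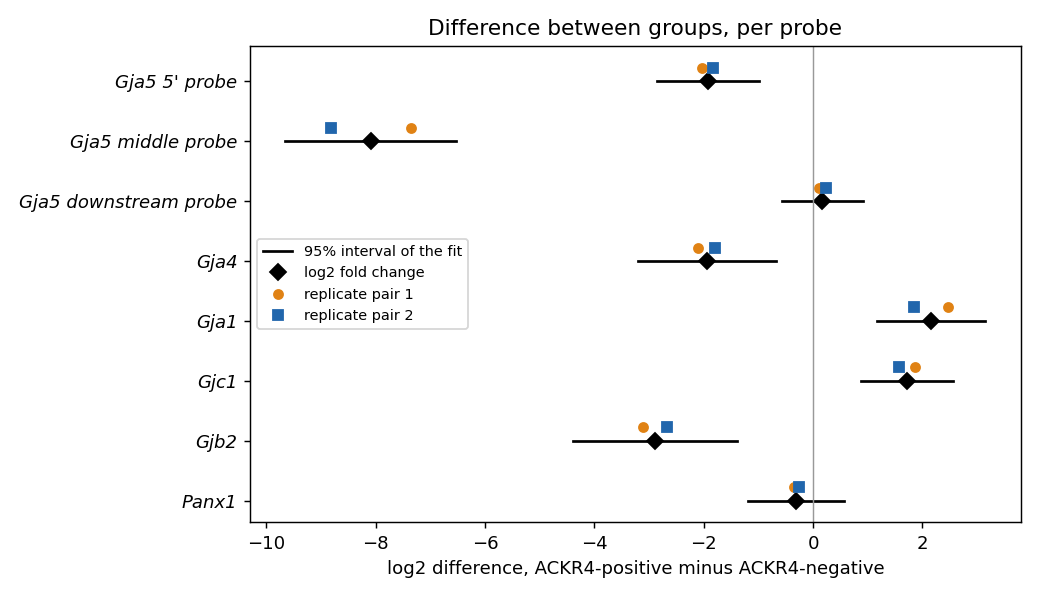
Log2 difference in level, ACKR4-positive minus ACKR4-negative, for the 8 member probes, with the 95% interval of the limma fit and the difference within each replicate pair. Gja1 and Gjc1 lie right of 0, Gja4, Gjb2 and the 5′ and middle Gja5 probes left of it, and the intervals of Panx1 and of the downstream Gja5 probe span 0.

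The other connexin and pannexin genes were mostly not measurable. Of the 16 such genes reported here, 13 were well above background on none of the 4 arrays, and the other 3, Gjb1, Gja3 and Gja10, were above it on all 4. None of these 3 was called by limma with or without the replicate block (0 of 3 for both, and 0 at an unadjusted p under 0.05), against 5.38% of all tested probes called without it and 14.6% with it. Gjb1, the connexin of liver cells and of Schwann cells, stood at -1.12 and -1.16 in ACKR4-positive cells and at -1.47 and -1.58 in ACKR4-negative cells (log2 difference 0.39 ± 0.28, limma adjusted p = 0.653). Gja3 and Gja10 had log2 differences of 0.26 and 0.15 (limma adjusted p = 0.791 and 0.912).

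**Figure D4:**
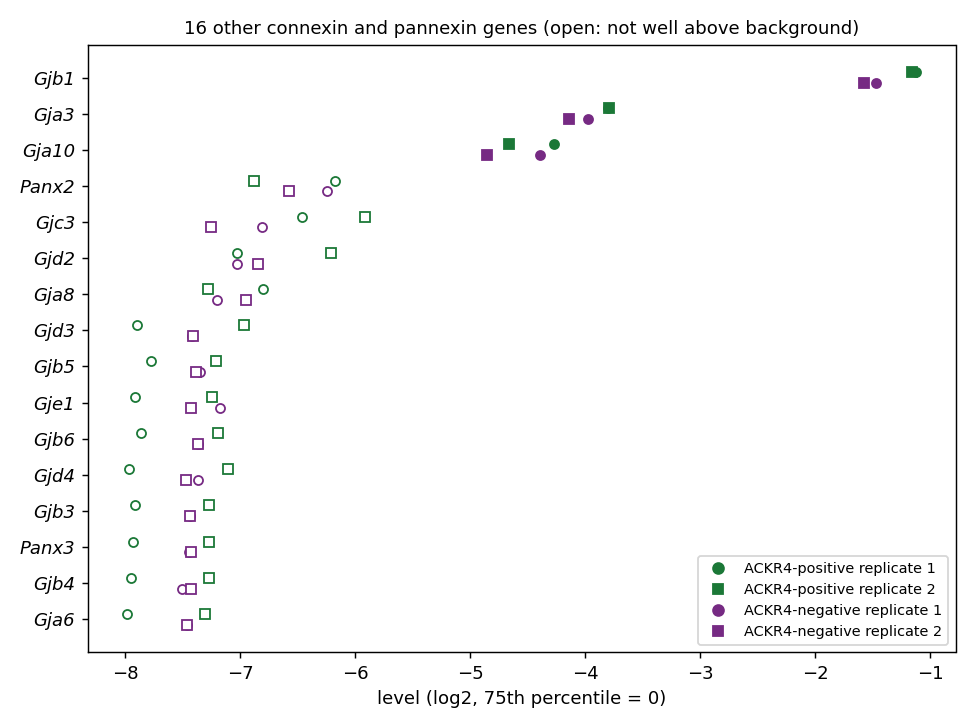
Levels of 16 other connexin and pannexin genes (brightest probe, log2 signal relative to the array's 75th percentile) on each array, with open symbols where signal was not well above background. Filled symbols appear for 3 genes, Gjb1, Gja3 and Gja10, and the other 13 are open on all 4 arrays.

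Genes whose products bind connexins, carry them to the membrane or act beside them in endothelium were described from 14 listed genes, of which 13 were tested. Of these 13, 0 were called by limma, against 5.38% of all tested probes, and 0 had an unadjusted p under 0.05. The replicate block called 0, against 14.6% of all tested probes, and the median log2 difference was -0.12. Lowest by p were Mapre1, a microtubule end-binding protein, and Dbn1, an actin-binding protein that holds Gja1 at the membrane, with log2 differences of 0.74 ± 0.29 and -0.63 ± 0.31 (limma adjusted p = 0.333 and 0.466). Tjp1, the scaffold best known for binding Gja1, had a log2 difference of -0.33 ± 0.31 (95% interval -1.13 to 0.477). Nos3, the endothelial nitric oxide synthase, stood at 4.41 and 4.28 in ACKR4-positive cells and at 4.41 and 4.07 in ACKR4-negative cells (log2 difference 0.11 ± 0.30).

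ATP and adenosine outside the cell are handled by a list of 23 receptors, enzymes and carriers, which also held the caspases that open Panx1. Of 16 tested, 3 fell and 0 rose in ACKR4-positive cells, where 3.62% of all tested probes were called lower and 1.76% higher. Their median log2 difference was -0.31, against 0.04 for all tested probes. The 3 were P2ry12, the ADP receptor of platelets, at -5.43 ± 0.40 (limma adjusted p = 0.00961, at least 14.3-fold lower), P2rx1, an ATP-gated channel of platelets and smooth muscle, at -4.03 ± 0.34 (adjusted p = 0.0114), and P2ry2, a receptor for ATP and UTP, at -1.72 ± 0.28 (adjusted p = 0.0437). P2ry12 was above background on neither ACKR4-positive array. It entered the test only through the ACKR4-negative arrays, which favours a call of lower. Next by p was Adora2a, an adenosine receptor, at -2.33 ± 0.43 (limma adjusted p = 0.0601, and 0.00414 with the replicate block). Beside these falls, 10 of 12 platelet markers fell as well, and their part in the result was not tested. With the replicate block 7 of the list were called lower and 2 higher, against 8.21% and 6.37% of all tested probes. The 2 higher genes were P2rx4, an ATP-gated channel of endothelium that senses flow, with a log2 difference of 1.02 ± 0.30 (limma adjusted p = 0.184, and 0.0442 with the block), and Slc29a1, a nucleoside carrier, with one of 1.13 ± 0.42 (adjusted p = 0.310, and 0.0318 with the block).

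Genes tied to Gja4 or Gja5 through artery formation or heart development made a list of 12, of which 11 were tested. Of these, 3 fell and 0 rose, against 3.62% lower and 1.76% higher among all tested probes. With the replicate block 3 were called lower and 1 higher, against 8.21% and 6.37% of all tested probes. The median log2 difference was -0.24, against 0.04 for all tested probes. Sox17 and Dll4, of the arterial programme, stood at -9.90 ± 0.35 and -7.71 ± 0.28 (limma adjusted p = 0.00659 for both, at least 886-fold and 200-fold lower). Both were above background on neither ACKR4-positive array. They entered the test only through the ACKR4-negative arrays, which favours a call of lower. Tbx3, a T-box factor known to repress Gja5 in the conduction system of the heart, had levels of -4.51 and -3.82 in ACKR4-positive cells and of 2.07 and 2.30 in ACKR4-negative cells (log2 difference -6.35 ± 0.36, adjusted p = 0.00731). Next by p was Nkx2-5, a heart factor, at -1.36 ± 0.48 (adjusted p = 0.276, and 0.0501 with the replicate block). Klf4, a flow-responsive factor, had a log2 difference of 1.31 ± 0.50 (adjusted p = 0.325, and 0.0173 with the replicate block), and Klf2 of 0.49 ± 0.29 (adjusted p = 0.556, and 0.224 with the block).

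Markers of other cells that carry these connexins also differed between the groups. Of 12 mural and smooth muscle markers, 11 were tested and 4 fell, against 3.62% of all tested probes. With the replicate block all 11 were called lower, against 8.21% of all tested probes. Their summed signal, in units of the array's 75th percentile, was 18.4 and 11.1 in ACKR4-positive cells and 87.2 and 124 in ACKR4-negative cells. In this and the sums below, bright probes weigh most. Of the 12, 6 were well above background on both ACKR4-positive arrays, Acta2 among them, and 3 on neither, Myh11, Cnn1 and Rgs5. On both ACKR4-negative arrays 11 were above it, and Rgs5 was above it on 1. Of 12 megakaryocyte and platelet markers, 10 fell, against 3.62% of all tested probes, and 11 were called lower with the block, against 8.21%. The summed signal was 1.28 and 2.78 in ACKR4-positive cells and 103 and 236 in ACKR4-negative cells. On both ACKR4-positive arrays 6 of the 12 were above background, and Itga2b, Gp5, Gp6 and Tubb1 were above it on neither. In both lists, tested markers not above background on both ACKR4-positive arrays entered the test only through the ACKR4-negative arrays, which favours calls of lower. The part of mural cells and platelets in the lower Gja4 and Gja5 levels was not tested.

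Gja1 and Gjc1, also known from smooth muscle, had higher mean levels in ACKR4-positive cells, and neither passed the test without pairing. For the counts of this paragraph, limma called 3.62% of all tested probes lower and 1.76% higher, and with the block 8.21% and 6.37%. Tested markers dim on an ACKR4-positive array, Gata1, Epor and Mmrn1 among them, entered through the ACKR4-negative arrays, which favours calls of lower. Of 9 tested fibroblastic reticular markers, 0 were called by limma, with 4 lower at an unadjusted p under 0.05, against 8.73% of all tested probes. With the replicate block 4 were called lower, Cxcl13, Lepr, Tcf21 and Cxcl12, and 1 higher, Dcn, a matrix proteoglycan (log2 difference 2.37 ± 0.94, limma adjusted p = 0.341, and 0.0148 with the block). The summed signal of the list was 7.89 and 9.26 in ACKR4-positive cells and 17.2 and 21.3 in ACKR4-negative cells. Lymphatic endothelial markers had 1 fall among 5 tested, that of Mmrn1, which platelets express too (2 with the block, Nts added), with a summed signal of 2.48 and 1.32 in ACKR4-positive cells and of 4.82 and 2.74 in ACKR4-negative cells. Prox1, the factor that defines lymphatic identity, and Flt4, a growth factor receptor of lymphatic endothelium, were not called, at log2 differences of 0.41 ± 1.04 (adjusted p = 0.926, and 0.312 with the block) and 0.90 ± 0.43 (adjusted p = 0.454, and 0.0587 with the block). Within sorts 1 and 2 these were 0.26 and 0.57 for Prox1 and 0.79 and 1.02 for Flt4. Lyve1, also not called, had a log2 difference of -0.18 ± 0.45, with 0.10 and -0.45 in sorts 1 and 2. Of 8 mesothelial and epithelial markers, 1 was above background on ACKR4-positive replicate 1 and 5 on replicate 2, against 1 and 2 on ACKR4-negative replicates 1 and 2. These were not the same genes. Msln, which encodes mesothelin, was above background on both ACKR4-positive arrays and neither ACKR4-negative one, at levels of -4.30 and -1.62 in ACKR4-positive cells and of -7.46 and -7.45 in ACKR4-negative cells (at least 6.12-fold higher, limma adjusted p = 0.0772, and 0.00864 with the block). Wt1, a mesothelial transcription factor, was above it on the ACKR4-negative arrays alone, with a log2 difference of -1.57 ± 0.42 (at least 2.69-fold lower, adjusted p = 0.156, and 0.0103 with the block). Of 9 tested leukocyte markers 1 fell (3 with the block), with a summed signal of 22 and 85.4 in ACKR4-positive cells and of 25.1 and 46.7 in ACKR4-negative cells. Most of this sum came from Itgam on all 4 arrays. Of 8 tested erythroid markers 3 fell (4 with the block), with a summed signal of 17.6 and 60.6 in ACKR4-positive cells and of 386 and 29.2 in ACKR4-negative cells. Most of this sum came from Hba-a1 on all 4 arrays, and ACKR4-negative replicate 1 stood apart. Without that array, which leaves 1 ACKR4-negative array, the middle Gja5 probe stood at -8.90. Leaving it out does not remove erythroid signal, as 8 of 10 erythroid markers measured were well above background on ACKR4-negative replicate 2. The part of erythroid cells in the Gja5 levels was not tested. The pan-endothelial markers had 3 falls among 12 tested (4 called lower and 1 higher with the block), and a summed signal of 391 and 472 in ACKR4-positive cells and of 545 and 545 in ACKR4-negative cells. The part of these cell types in the Gja1, Gjc1 and Gjb2 levels was not tested.

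The promoters of Gja5 and Gja4 are shown because these are the 2 arterial connexins with lower levels in ACKR4-positive cells. The table of RefSeq promoters (GRCm38.p6) held an entry for 5 of the 6 members, and Gjc1 is named only. The 250 bases before each start follow, for Gja5 at chr3:97032152-97032401 on the plus strand and for Gja4 at chr4:127314040-127314289 on the minus strand. Capitals mark the letters searched for on both strands, which were ACAAT for SOX factors, GGGCGG for SP1, TGGGAA for RBPJ, CACCC for KLF factors and TATAAA for a TATA box.
Gja5 promoter: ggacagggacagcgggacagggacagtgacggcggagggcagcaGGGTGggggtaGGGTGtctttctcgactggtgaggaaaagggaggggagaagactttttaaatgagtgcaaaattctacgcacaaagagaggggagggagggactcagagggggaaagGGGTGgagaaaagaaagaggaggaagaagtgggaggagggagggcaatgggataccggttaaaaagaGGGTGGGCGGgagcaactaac
Gja4 promoter: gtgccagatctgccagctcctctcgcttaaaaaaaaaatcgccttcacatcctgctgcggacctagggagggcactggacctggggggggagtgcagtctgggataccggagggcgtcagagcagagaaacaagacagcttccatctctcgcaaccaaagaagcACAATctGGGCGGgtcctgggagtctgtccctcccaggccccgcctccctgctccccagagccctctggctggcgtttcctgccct

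The Gja5 window held 4 matches of the KLF letters, all on the opposite strand, and 1 of the SP1 letters, which overlaps the KLF match nearest to the start. The Gja4 window held 1 match each of the SOX and SP1 letters. Neither held the RBPJ letters or the TATA letters. Among 32851 promoters of the table, 52.0% held the KLF letters, 32.7% the SP1 letters, 27.7% the SOX letters, 21.6% the RBPJ letters and 12.4% the TATA letters within the same 250 bases. The window of Gja1 held none of the 5, that of Gjb2 held 7 KLF and 2 SP1 matches, and that of Panx1 1 RBPJ match. A match describes these letters only and is no measured binding site.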

How the data were processed

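Between 6 and 20 ng of RNA per sample were amplified, per the labels' protocols, and by the file headers 1 slide, scanned once, carried all 4 arrays. Per the file headers, the deposited processed signal is an intensity from Agilent Feature Extraction 10.7.3.1, background-subtracted and detrended within each array and not scaled between arrays. The authors' deposited table is an intensity on a linear scale, checked here against the scanner files (correlation of log2 values 1.00, 75th percentile 1498 to 1506, lowest value 15, array medians 80 to 89), and served as an alternative.

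Spots marked as outliers (1.91% to 1.96% per array) were left out. Testing required that, in either group, each array had more than 50% of the spots of a probe well above background. A probe that passed through the ACKR4-negative group alone was dim on an ACKR4-positive array, which favours a call of lower. Tests used limma 3.58.1 in R 4.3.3, 2-sided, with Benjamini-Hochberg adjustment and a threshold of 0.05 over all tested probes. Only the fit without the block was tested on simulated data, whose independent noise held neither paired arrays nor a background floor. The replicates are 2 sorts of pooled mice, so p-values measure the spread between these arrays. Replicate numbers pair the arrays by their titles, and deviations from the group means of same-numbered arrays correlated at 0.60 across tested probes. With the block, little is left to estimate each probe's own spread, so its SE rests largely on variance shared across all tested probes. A fold given as "at least" sets a dim level to the lowest one that is well above background among probes of that array, where this is higher. Probes of the lists were named by RefSeq accession (26826 probes), current symbol (4145) or the file's name (8458), and the brightest tested probe stood for a gene. The number of arrays limits the precision. The members and lists were chosen with earlier results of these data known, and genes named are the members, up to 4 genes per list by p, and those that a count or a marker check rests on. The promoters other than that of Gja5, Acp6, Klf2, Klf4, P2rx4, Slc29a1, Tjp1, Nos3 and the single markers named were added after values were seen. Of the lists, 2 genes are not reported here.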

Additional observations from a re-analysis of the deposited data

How the results depend on the processing

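Alternatives that change only the tested probes, the variance prior, the block or the threshold keep the log2 difference and so its direction. Across all 16 alternatives, these among them, no member probe changed direction. The middle Gja5 probe was called in all 15 that tested it, at -8.90 to -4.54 (limma adjusted p = 0.000506 to 0.0279). The count of member probes called lower, 1 as reported, was 2 with quantile normalization and with the deposited table (the 5′ Gja5 probe added), 0 with the stricter filter, which removes probes dim in 1 group and with them Gjb2 and both falling Gja5 probes, 3 at an adjusted p under 0.1, and 4 with the replicate block. The count called higher, 0 as reported, was 1 with normexp, median centring, the deposited table and the trended prior, and 2 at an adjusted p under 0.1 and with the block. Leaving out 1 array gave 1 to 2 lower, the 2 being Gjb2 added without ACKR4-positive replicate 2 (adjusted p = 0.0430), and 0 to 0 higher. Of all probes, 1194 were called, 503 with the stricter filter, 3235 with the replicate block and 614 to 1058 with 1 array left out, the 3 lowest being 614 and 665 without ACKR4-negative replicates 1 and 2 and 644 without ACKR4-positive replicate 1. The block changed the call of 5 member probes and not of the middle and downstream Gja5 probes or Panx1. Signals near background limit Gjb2 and the 5′ and middle Gja5 probes.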
